A study of Mus musculus with 12 samples.

Results

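The data ask whether the loss of p300 and the loss of Tet2 act independently of each other on the transcriptome of mouse hematopoietic stem and progenitor cells. For each gene, the effect of p300 loss was measured once in Tet2-deleted cells, as the libraries labelled p300KO_TET2KO minus TET2KO, and once in cells with Tet2, as P300KO minus WT, both on the log2 scale. The first effect minus the second is called the departure from additivity here. A departure of 0 means that the 2 losses multiplied their folds, a negative one that the combined loss left the gene lower than the 2 single losses predict, and a positive one that it left the gene higher. The measure uses 12 of the 12 libraries of the series and could be fitted for 17842 of the 46517 genes in the table, those that passed a filter on low counts.

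RNA was sequenced from LSK cells, the bone marrow cells that lack lineage markers and carry Sca-1 and c-Kit on their surface, with paired reads of 100 bp. The mice were 8 to 10 weeks old and had received poly(I:C), an inducer of interferon that switches on the Mx1-Cre transgene, 2 weeks earlier. The 4 groups had 3 libraries each: p300KO_TET2KO (Ep300 fl/fl with Mx1-Cre, Tet2-/-), P300KO (Ep300 fl/fl with Mx1-Cre), TET2KO (Ep300 fl/fl, Tet2-/-) and WT (Ep300 fl/fl). By the study's methods all mice thus carried floxed Ep300 and were given poly(I:C), and the groups without p300 deletion had no Mx1-Cre, whereas the design text deposited with the series describes the mice as Mx1-Cre positive. Cre is active in any cell that answers interferon, so deletion is not limited to LSK cells, and the Tet2 deletion was constitutive. If Mx1-Cre was carried by the p300-deleted groups alone, an effect of Cre and the loss of p300 cannot be told apart within each p300 comparison.

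Ep300 encodes p300, an acetyltransferase that is recruited by transcription factors and acetylates histones at enhancers and promoters, and Crebbp encodes CBP, its close paralog. TET2 oxidizes 5-methylcytosine to 5-hydroxymethylcytosine, a step toward DNA demethylation, and is one of the genes most often mutated in clonal hematopoiesis and myeloid neoplasms. Both proteins act at enhancers of blood cell genes.

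Ep300 RNA was at 166, 176 and 179 CPM (library-scaled counts) in the libraries labelled p300KO_TET2KO, 176, 233 and 192 CPM in P300KO, 350, 346 and 313 CPM in TET2KO, and 307, 340 and 285 CPM in WT. The p300-deleted libraries lay below all others. The log2 p300 effect on Ep300 was -0.95 in TET2KO (edgeR quasi-likelihood test, adjusted p = 5.46e-04) and -0.63 in WT (adjusted p = 0.00647). Tet2 RNA was at 128, 101 and 145 CPM in the libraries labelled p300KO_TET2KO, 139, 181 and 168 CPM in P300KO, 56.6, 38.6 and 48.1 CPM in TET2KO, and 136, 139 and 120 CPM in WT. The TET2KO libraries lay below all others, while those labelled p300KO_TET2KO overlapped WT. Tet2 therefore had a departure of 1.08 ± 0.22 (SE; unadjusted p = 3.16e-04, edgeR adjusted p = 0.491, DESeq2 adjusted p = 0.00479), and it stayed between 0.93 and 1.22 when 1 library was left out. Reads were counted over the whole gene, so this level does not show which exons were present, but by RNA the libraries labelled p300KO_TET2KO go against their label for Tet2. Every value below that uses them carries this limit.

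Total counts ranged over 18773903 to 79573664 per library. LSK markers were present in every library, with Kit at 723 to 1055 CPM, and Cd3e, Cd8a and Ly6g of mature T cells and neutrophils were at most 0.167 CPM. The mitochondrial share of counts was 0.503% for p300KO_TET2KO replicate 2 and 1.18% to 1.53% elsewhere. Xist, the RNA of the inactive X chromosome, was high and Y-linked RNA near 0 in p300KO_TET2KO replicates 1 and 3 and in replicate 3 of both P300KO and TET2KO, and TET2KO replicate 1 held both. WT held no Xist-high library. The third principal component (11.1% of the variance) set P300KO replicate 3, TET2KO replicate 3 and WT replicate 3 apart, and it does not follow the groups.

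No gene departed from additivity at the threshold used. edgeR called 0 of 17842 genes (0% at a Benjamini-Hochberg adjusted p under 0.05), and the smallest adjusted p was 0.384. At an unadjusted p under 0.05, 1268 genes departed (7.11%), 631 of them negatively (3.54%) and 637 positively (3.57%). limma-voom also called 0 genes, with 1693 at an unadjusted p under 0.05, and limma-trend called 0, with 1234. A DESeq2 Wald test called 51 genes (0.286%), 34 negative and 17 positive, with 1348 at an unadjusted p under 0.05. All 51 had the same sign in edgeR, and 50 of them had an unadjusted p under 0.05 there. Both tools were fitted to the same counts, so this is no independent support. Of the 51, 45 averaged at least 1 CPM and the rest less. With 1 library left out, edgeR called 14 genes without WT replicate 3, 1 without TET2KO replicate 2 and 0 in each of the other 10 fits. The p-values measure the spread between 3 libraries per group, which the study describes as independent biological replicates. In bulk RNA, fewer cells of a type and less RNA per cell cannot be told apart.

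The p300 effects in the presence and absence of Tet2 were similar in number. p300 loss in TET2KO called 180 genes higher (1.01%) and 515 lower (2.89%), and p300 loss in WT called 189 higher (1.06%) and 509 lower (2.85%). These comparisons share no library. The 695 calls in TET2KO became 387 to 426 without p300KO_TET2KO replicate 1 or 3 or TET2KO replicate 1 or 2, and the 698 calls in WT became 244 to 397 without any 1 library of P300KO or without WT replicate 1 or 2. In both, 269 genes were called lower (1.51%) and 53 higher (0.297%), and 0 were called in opposite directions by edgeR. At unadjusted p under 0.05 in both, 36 genes had opposite signs in edgeR, 28 in DESeq2 and 57 in limma-voom. At the adjusted threshold in both, DESeq2 called 1 gene in opposite directions and limma-voom 0. The 322 genes called in both in the same direction became 166 to 207 without WT replicate 1 or 2, P300KO replicate 1 or 3, TET2KO replicate 2 or p300KO_TET2KO replicate 3. The DESeq2 gene, Gm27517, averaged 0.278 CPM over the 12 libraries and was named after its values were seen. Of the 509 genes called lower in P300KO, 490 had the same direction in the libraries labelled p300KO_TET2KO relative to TET2KO, with a median log2 change of -0.79 there and -1.07 in P300KO relative to WT. Read the other way, 493 of the 515 genes called lower in the libraries labelled p300KO_TET2KO had the same direction in P300KO, with medians of -1.16 in the comparison that chose them and -0.70 in the other. In each pair the value smaller in size belongs to the comparison that did not choose the genes. Of the 322 genes called in both p300 comparisons, 191 (59.3%) had a 95% interval of the departure within 1 on the log2 scale, against 59% of all genes tested. The choice of these genes uses the same libraries as the departure and favors similar effects. The interval lay within 1 for Kcng1, Notch1, Bcl2 and Inppl1, among others.

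**Figure D1:**
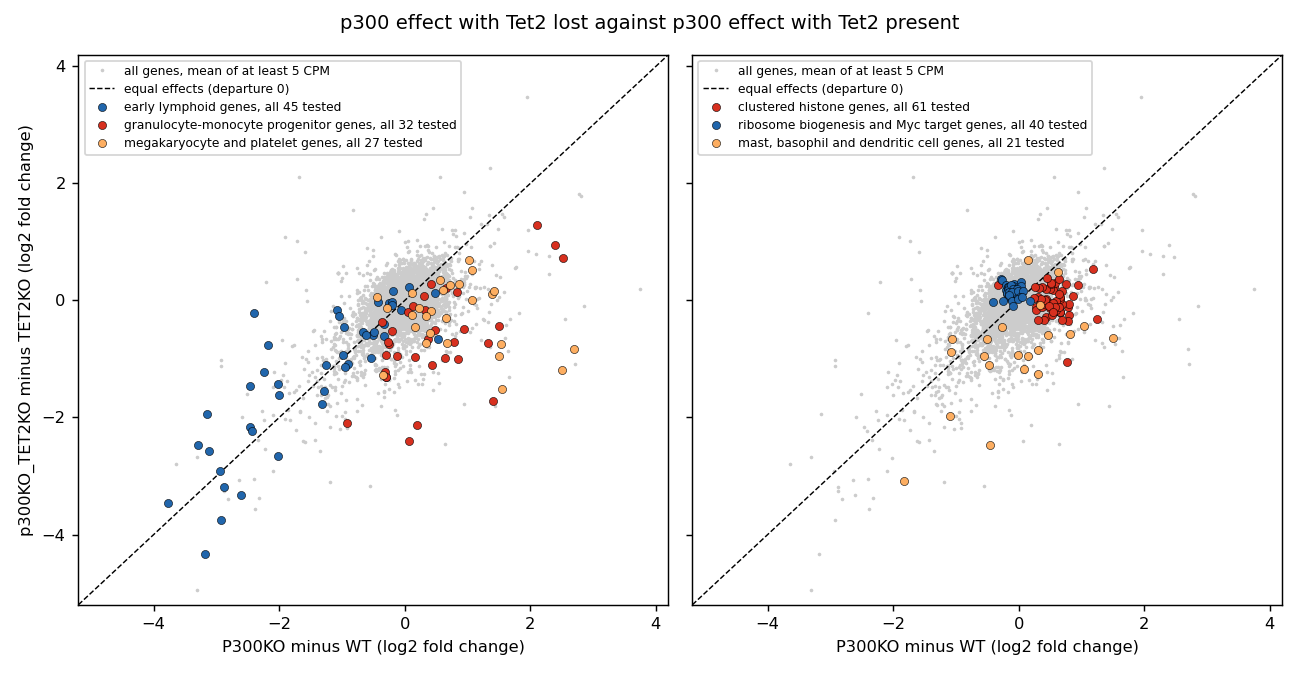
The p300 effect in TET2KO (y axis, log2 of p300KO_TET2KO over TET2KO) against the p300 effect in WT (x axis, log2 of P300KO over WT); gray points are 11351 genes with a mean of at least 5 CPM, with 9 more outside the axes, colored points are all tested members of 6 lists, and the dashed line marks equal effects. Early lymphoid genes (left, blue) lie low along the line, granulocyte-monocyte progenitor and megakaryocyte genes (left, red and orange) lie mostly below it, histone and mast cell genes (right, red and orange) also lie mostly below it, and ribosome biogenesis genes (right, blue) cluster near 0, just above it.

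The early lymphoid program held the most genes called in either p300 comparison of the 47 lists examined and had a median departure near 0. Of its 45 tested members of 46, p300 loss called 22 lower in TET2KO (beside 2.89% of all genes) and 26 lower in WT (beside 2.85%). The median log2 effects were -0.99 and -1.04. The median member was at -1.56 in the libraries labelled p300KO_TET2KO relative to WT, where the sum of the single effects predicts -1.61. The median departure was 0.14 (-0.08 without p300KO_TET2KO replicate 2), with 27 members positive and 18 negative and 3 in each direction at an unadjusted p under 0.05 (6 of 45, or 13.3%), beside 7.11% and a median of 0.00 over all genes tested.

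Il7r, which encodes the receptor chain specific to interleukin-7, had the smallest departure p in this program. It was at 1.51, 1.33 and 1.43 CPM in the libraries labelled p300KO_TET2KO, 2.75, 4.36 and 5.99 CPM in P300KO, 33.6, 31.3 and 20.1 CPM in TET2KO, and 35.7, 39.9 and 42.6 CPM in WT. The 4 groups did not overlap. The p300 effect on Il7r was -4.33 in TET2KO and -3.18 in WT (edgeR adjusted p = 7.15e-06 and 5.84e-05), a departure of -1.15 ± 0.35 (unadjusted p = 0.00634, adjusted p = 0.586). Dntt, the terminal transferase of antigen receptor rearrangement, was at 18.8, 47.6 and 49.1 CPM in the libraries labelled p300KO_TET2KO, 81.1, 105 and 164 CPM in P300KO, 450, 522 and 194 CPM in TET2KO, and 585, 642 and 911 CPM in WT. Its groups did not overlap either, and its departure of -0.72 ± 0.56 had a 95% interval of -1.93 to 0.49. Rag2, a subunit of the V(D)J recombinase, and Ebf1, a transcription factor of B cell fate, departed by -0.82 ± 0.57 and -0.30 ± 0.97. Notch1, a receptor that T cell commitment requires, departed by -0.26 ± 0.26, with an interval of -0.82 to 0.31, which leaves out a departure beyond 1 in either direction. For Dntt, Rag2 and Ebf1 the intervals reached beyond 1.

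The 53 genes called higher by p300 loss in both settings had a median departure of -0.01, and 4 of them (7.55%) departed at an unadjusted p under 0.05, beside 7.11% of all genes. The interval lay within 1 for 40 of the 53. A call in both settings favors similar effects and uses the same libraries, so these values do not measure additivity. Of the 189 genes called higher in P300KO relative to WT, 68 (36%) departed at that unadjusted p. Of the 180 called higher in the libraries labelled p300KO_TET2KO relative to TET2KO, 45 (25%) did. Choice by either comparison alone favors unequal effects. Inppl1, which encodes the lipid phosphatase SHIP2, was at 31.9, 31.5 and 29.3 CPM in the libraries labelled p300KO_TET2KO and 24.8, 24.5 and 30.1 CPM in P300KO. It was at 14.0, 11.4 and 12 CPM in TET2KO, and 11.4, 9.90 and 13.2 CPM in WT. The p300-deleted libraries were all above the others, and the departure was 0.10 ± 0.18 (95% interval -0.30 to 0.50). Arfgef3 (-0.07 ± 0.35), the transporter gene Abcc3 (-0.01 ± 0.39), the sterol 27-hydroxylase gene Cyp27a1 (-0.16 ± 0.37) and Npdc1 (0.11 ± 0.45) departed by less than their SE. Krt80, a keratin gene, departed by -0.77 ± 0.27 (unadjusted p = 0.0131, edgeR adjusted p = 0.632). Myb, the transcription factor of progenitor proliferation, was called higher in both p300 comparisons (log2 effects 0.42 in TET2KO and 0.59 in WT, edgeR adjusted p = 0.0385 and 0.00761), and its departure was -0.17 ± 0.14 (95% interval -0.48 to 0.14).

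Across the 47 gene lists examined, the lowest median departures were those of granulocyte-monocyte progenitor genes (-1.0), mast cell, basophil and dendritic cell genes (-0.92), megakaryocyte and platelet genes (-0.61), 7 markers of lineage-positive cells (-0.59) and clustered histone genes (-0.58), and the highest was that of mature B and plasma cell genes (0.79). Each list is described by the number of members past an unadjusted p of 0.05 and by its median, beside the same over all genes tested, without a test of the list. On log2 CPM group means the order was different, with granulocyte-monocyte progenitor genes still lowest (-0.91), then mitochondrially encoded genes (-0.67), megakaryocyte and platelet genes (-0.65), clustered histone genes (-0.64), immediate-early and AP-1 genes (-0.57) and mast cell, basophil and dendritic cell genes (-0.56). The lineage-positive markers, of which 4 were negative and 3 positive, were at 0.02 on that scale and at -0.05 in the fit without P300KO replicate 2. Mature B and plasma cell genes were highest on both (0.85 on log2 CPM group means).

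**Figure D2:**
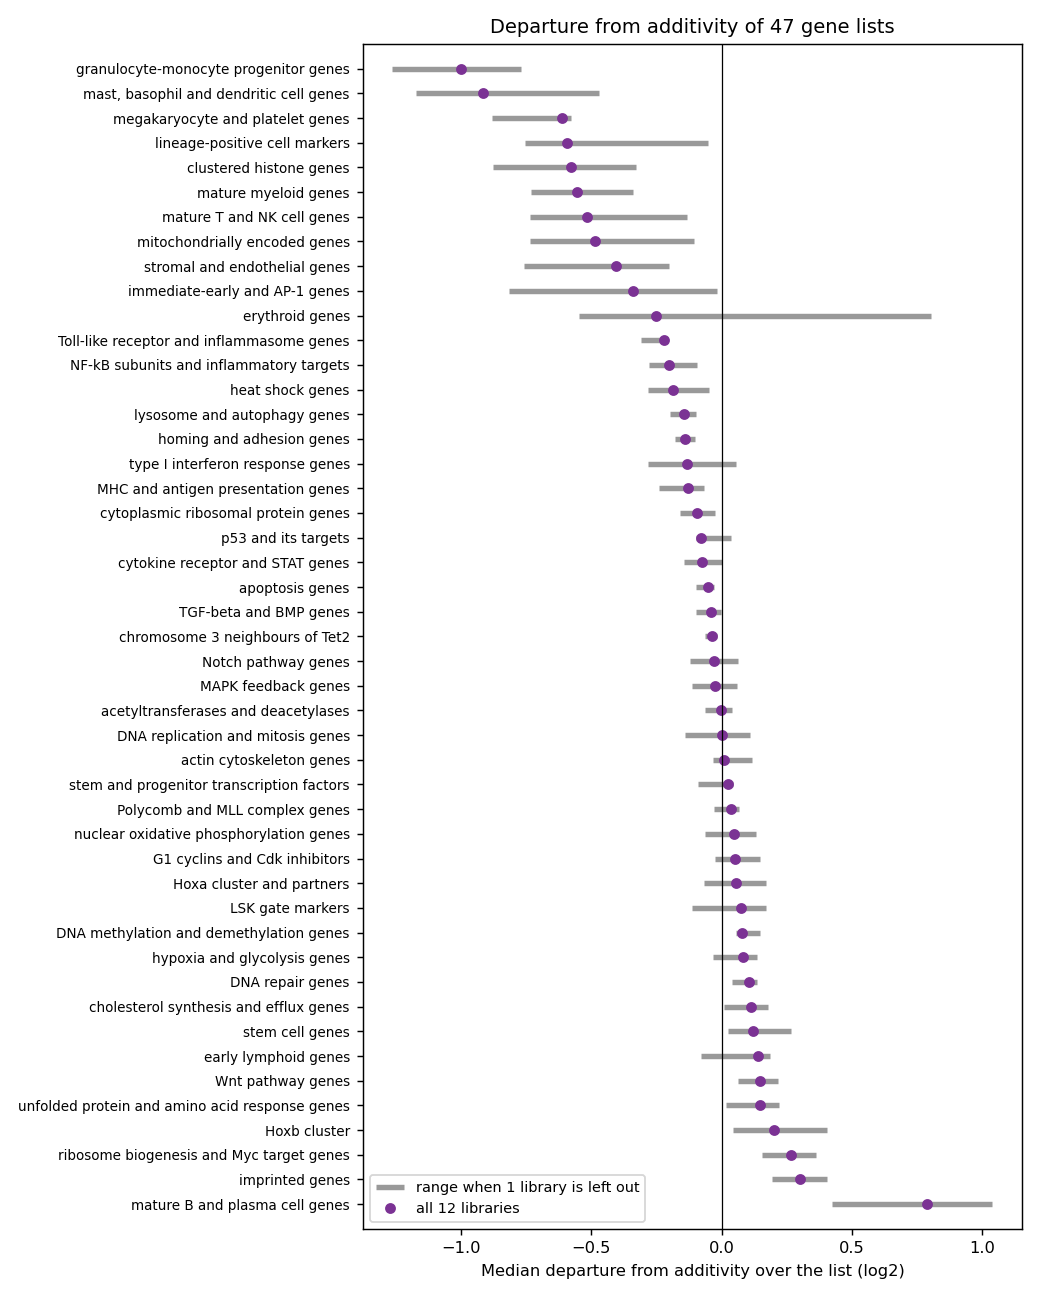
Median departure from additivity over the tested members of 47 gene lists (x axis, log2), with all 12 libraries (points) and the range when each library in turn was left out (gray bars). The points run from -1.0 for granulocyte-monocyte progenitor genes to 0.79 for mature B and plasma cell genes, and the bar of the erythroid genes crosses 0, from -0.55 to 0.80.

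Genes of granulocyte-monocyte progenitors had the most negative departures. Of 32 tested members of 33, 31 departed negatively (beside 49.9% of all genes) and 18 did so at an unadjusted p under 0.05 (beside 3.54%). Their median p300 effect was -0.68 in TET2KO and 0.35 in WT. p300 loss called 8 members lower in TET2KO (beside 2.89% of all genes) and 2 higher in WT (beside 1.06%). The median member was at 0.65 in TET2KO relative to WT, at 0.35 in P300KO and at 0.03 in the libraries labelled p300KO_TET2KO, where the sum of the single effects predicts 0.93. Both single losses were thus above WT in the median, and the combined loss was at the WT level. By library, however, the groups overlapped. Relative to the WT mean the list ran from -0.22 to 0.30 in WT, 0.09 to 0.80 in P300KO and 0.15 to 1.09 in TET2KO. It ran from 0.02 to 0.23 in the libraries labelled p300KO_TET2KO.

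Csf1r encodes the receptor for macrophage colony-stimulating factor. It was at 52.0, 37.5 and 44.6 CPM in the libraries labelled p300KO_TET2KO, 47.6, 39.3 and 63.2 CPM in P300KO, 107, 57.1 and 123 CPM in TET2KO, and 33.4, 36.5 and 40.8 CPM in WT. The TET2KO libraries lay above WT and above those labelled p300KO_TET2KO, and 1 of them overlapped P300KO. Csf1r departed by -1.54 ± 0.35 (unadjusted p = 7.24e-04, edgeR adjusted p = 0.491, DESeq2 adjusted p = 0.00546). F13a1, the A subunit of coagulation factor XIII and a monocyte gene, was at 41.2, 17.8 and 34.2 CPM in the libraries labelled p300KO_TET2KO, 36.7, 28.4 and 81.2 CPM in P300KO, 144, 74.2 and 271 CPM in TET2KO, and 36.1, 35 and 68.0 CPM in WT. TET2KO spread widely and overlapped P300KO, and the departure was -2.47 ± 0.70 (unadjusted p = 0.00377, edgeR adjusted p = 0.553).

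Gfi1, a repressor that directs progenitors to the granulocyte fate, had another shape. It was at 13.2, 17.7 and 18.4 CPM in the libraries labelled p300KO_TET2KO, 30.8, 31.0 and 33.7 CPM in P300KO, 34.7, 28.9 and 32.0 CPM in TET2KO, and 32.1, 38.0 and 33.7 CPM in WT. Only the libraries labelled p300KO_TET2KO stood apart, below the other 9. Gfi1 departed by -0.83 ± 0.18 (unadjusted p = 5.01e-04, edgeR adjusted p = 0.491, DESeq2 adjusted p = 0.0135). Irf8, a transcription factor of monocytes and dendritic cells, departed by -1.01 ± 0.36 and Cebpd, a C/EBP family factor, by -1.48 ± 0.45.

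Pld4 and Ccl9, outside these lists, had the smallest departure p-values of all genes that the naming rule took, with Hist1h2bq. Pld4, an endolysosomal exonuclease of myeloid and dendritic cells, was at 11.2, 12.6 and 14.7 CPM in the libraries labelled p300KO_TET2KO, 12.2, 12.8 and 18.7 CPM in P300KO, 27.8, 34.9 and 34.9 CPM in TET2KO, and 10.4, 11.1 and 14.0 CPM in WT. The 3 TET2KO libraries lay above the other 9, and the departure was -1.64 ± 0.26 (95% interval -2.20 to -1.08, unadjusted p = 2.88e-05, edgeR adjusted p = 0.384, DESeq2 adjusted p = 1.09e-05). Pld4 was called lower by p300 loss in TET2KO and higher by Tet2 loss in WT (log2 effects -1.34 and 1.46, edgeR adjusted p = 0.00163 and 0.00207). Ccl9, a chemokine of myeloid cells, was at 43.7, 41.9 and 45.6 CPM in the libraries labelled p300KO_TET2KO, 61.2, 65.6 and 76.7 CPM in P300KO, 118, 67.8 and 97.9 CPM in TET2KO, and 55.5, 54.3 and 64.2 CPM in WT. Those labelled p300KO_TET2KO lay below all others, and the departure was -1.34 ± 0.23 (unadjusted p = 6.63e-05, edgeR adjusted p = 0.384, DESeq2 adjusted p = 8.43e-05).

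DESeq2 called 1 of 21 mature myeloid genes and 2 of 35 cytokine receptor and STAT genes (beside 0.286% of all genes), and the 3 are named here for those calls. Tyrobp, the signaling adaptor of myeloid and NK cell receptors, departed by -1.15 ± 0.27, Il6ra, the alpha chain of the interleukin-6 receptor, by -0.79 ± 0.19, and Lifr, a subunit of the leukemia inhibitory factor receptor, by -1.40 ± 0.36. The mature myeloid list had a median of -0.55, with 14 members negative and 7 positive. Of these, 4 and 1 were at an unadjusted p under 0.05 (beside 3.54% and 3.57% of all genes). The list of cytokine receptor and STAT genes had a median of -0.08, with 21 members negative and 14 positive. Here 6 and 2 were at an unadjusted p under 0.05, beside the same shares.

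The granulocyte-monocyte list did not rest on 1 library. Its summed level was 3630, 3132 and 3849 CPM in the libraries labelled p300KO_TET2KO, 3284, 3260 and 4827 CPM in P300KO, 5340, 3976 and 8120 CPM in TET2KO, and 2885, 2835 and 3809 CPM in WT. Replicate 3 was the highest in each group. The median departure ran from -1.26 without TET2KO replicate 2 to -0.77 without TET2KO replicate 3, and the number of members past an unadjusted p of 0.05 fell to 10 of 32 without TET2KO replicate 3 or without WT replicate 2. Without replicate 3 of every group the median was -0.85. On log2 CPM group means it was -0.91.

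**Figure D3:**
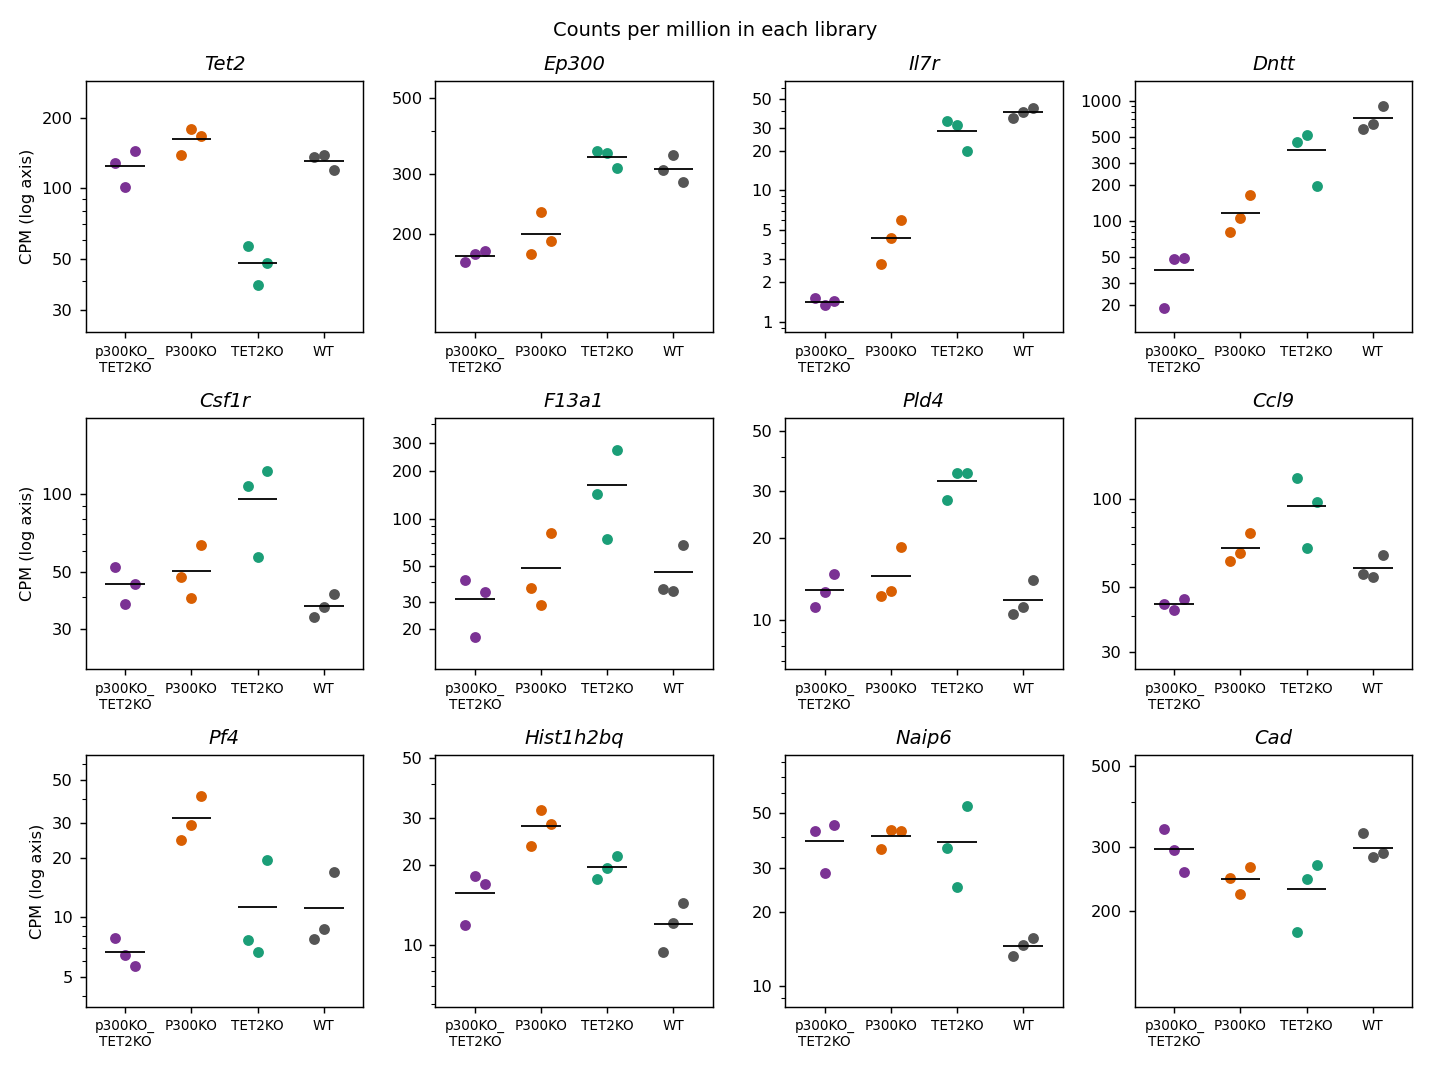
CPM (y axes, log scale) of 12 genes in the 3 libraries of each group (points; lines are group means). Tet2 is low in TET2KO alone, Il7r and Dntt are lowest in p300KO_TET2KO, and Csf1r, F13a1 and Pld4 are highest in TET2KO, while Hist1h2bq and Pf4 are highest in P300KO and Naip6 is low in WT alone.

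Mast cell, basophil and dendritic cell genes had the next lowest median in the fit, -0.92. Of 21 tested members of 23, 18 departed negatively and 4 did so at an unadjusted p under 0.05 (beside 3.54% of all genes). Their median p300 effect was -0.85 in TET2KO and 0.08 in WT, and their median Tet2 effect was -0.93 in P300KO and -0.03 in WT, so that the list was low where both genes were lost and near the WT level where 1 was lost. In the median over members, the libraries labelled p300KO_TET2KO stood at -0.87, -0.92 and -0.58 relative to the WT mean, those of P300KO at -0.46, -0.15 and 0.33, those of TET2KO at -0.17, -0.10 and 0.06, and those of WT at -0.28, 0.08 and 0.32. The libraries labelled p300KO_TET2KO were below all others.

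Ms4a2, the beta chain of the high-affinity IgE receptor, was at 3.50, 5.79 and 4.90 CPM in the libraries labelled p300KO_TET2KO, 15.2, 16.4 and 20.2 CPM in P300KO, 6.04, 8.41 and 11.6 CPM in TET2KO, and 8.56, 14.6 and 19 CPM in WT. Those labelled p300KO_TET2KO lay below the other 9 libraries, and Ms4a2 departed by -1.16 ± 0.42 (unadjusted p = 0.0171, edgeR adjusted p = 0.643). Il1rl1, the interleukin-33 receptor of mast cells and basophils, departed by -1.57 ± 0.55, Fcer1a, the alpha chain of the IgE receptor, by -2.14 ± 0.82, and Hdc, the enzyme that makes histamine, by -1.26 ± 0.51. Without TET2KO replicate 3 the departures of Fcer1a and Hdc were -1.37 and -0.80, with an unadjusted edgeR p of 0.0819 and 0.0946. The list is low in count, with a median member at 4.77 CPM, and its median departure was -0.47 without P300KO replicate 3, -1.17 without P300KO replicate 1 and -0.56 on log2 CPM group means.

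Megakaryocyte and platelet genes departed negatively with single losses that were both above WT. Of 27 tested members of 28, 24 departed negatively, 13 of them at an unadjusted p under 0.05 (beside 3.54% of all genes), and the median was -0.61 (-0.65 on log2 CPM group means). The median p300 effect was -0.17 in TET2KO and 0.65 in WT, where 7 members were called higher (beside 1.06% of all genes). The median Tet2 effect was -0.29 in P300KO and 0.32 in WT. Relative to the WT mean the list stood at 0.32, 0.32 and 0.20 in the libraries labelled p300KO_TET2KO, at 0.41, 0.38 and 0.88 in those of P300KO, at 0.34, 0.21 and 0.45 in those of TET2KO, and at -0.06, -0.14 and 0.25 in those of WT. The libraries labelled p300KO_TET2KO lay below P300KO, TET2KO overlapped both, and WT replicate 3 lay within the ranges of TET2KO and of the libraries labelled p300KO_TET2KO.

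Pf4, the chemokine platelet factor 4, was at 7.83, 6.44 and 5.64 CPM in the libraries labelled p300KO_TET2KO, 24.8, 29.6 and 41.5 CPM in P300KO, 7.63, 6.67 and 19.4 CPM in TET2KO, and 7.76, 8.74 and 17.1 CPM in WT. The P300KO libraries lay above the other 9. Pf4 departed by -2.28 ± 0.56 (unadjusted p = 0.00142, edgeR adjusted p = 0.553), and -1.66 was the smallest departure with 1 library left out (TET2KO replicate 3).

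Rab27b, a GTPase of platelet granule secretion, was at 20.7, 16.7 and 16.4 CPM in the libraries labelled p300KO_TET2KO, 23.3, 17.3 and 25.3 CPM in P300KO, 18.0, 16.5 and 18.8 CPM in TET2KO, and 9.10, 9.29 and 13 CPM in WT. WT was below all other libraries, and the 3 groups with a deletion overlapped each other. Its departure was -1.06 ± 0.24 (unadjusted p = 8.31e-04, edgeR adjusted p = 0.507, DESeq2 adjusted p = 0.0195). Cd9, a tetraspanin of platelets and stem cells, departed by -0.58 ± 0.15, Clec1b, the platelet podoplanin receptor, by -2.45 ± 0.67, and Vwf, von Willebrand factor, by -1.40 ± 0.47. Over the fits that left out 1 library the median of the list ran from -0.88 to -0.58, and 9 to 16 members had a negative departure at an unadjusted p under 0.05.

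Clustered histone genes, the multicopy genes of replication-dependent histones, departed in one direction almost throughout. Of 61 tested genes, 60 departed negatively and 16 did so at an unadjusted p under 0.05 (beside 3.54% of all genes), with a median of -0.58. The median p300 effect was -0.04 in TET2KO and 0.55 in WT, and the median Tet2 effect was -0.24 in P300KO and 0.32 in WT. Many of these genes have near-identical copies and transcripts without poly(A) tails, so their single values are uncertain.

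Hist1h2bq, an H2B gene, was at 11.9, 18.1 and 16.8 CPM in the libraries labelled p300KO_TET2KO, 23.5, 32.1 and 28.3 CPM in P300KO, 17.6, 19.4 and 21.5 CPM in TET2KO, and 9.38, 12.1 and 14.4 CPM in WT. P300KO lay above all other libraries, and the departure was -1.55 ± 0.27 (unadjusted p = 6.56e-05, edgeR adjusted p = 0.384, DESeq2 adjusted p = 6.50e-05). Hist1h2bb and Hist1h4c, which encode H2B and H4, departed by -1.14 ± 0.34 and -0.90 ± 0.29.

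The histone list moved with single libraries of WT. Its summed level was 11505, 15001 and 14586 CPM in the libraries labelled p300KO_TET2KO, 15716, 17898 and 14918 CPM in P300KO, 12066, 13561 and 15706 CPM in TET2KO, and 10731, 7666 and 15584 CPM in WT. WT spanned the range of most other libraries, with replicate 2 the lowest of the 12 and replicate 3 within the range of P300KO. The median departure was -0.33 without WT replicate 2 and -0.88 without WT replicate 3, and 12 and 40 genes had a negative departure at an unadjusted p under 0.05 in those fits. DNA replication and mitosis genes, a list of 53 members that cycling cells share with the histones, had a median of 0.00. Of them 4 were at an unadjusted p under 0.05 (7.55%, beside 7.11% of all genes), and 50 of 53 had an interval within 1.

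Toll-like receptor and inflammasome genes held some large negative departures around a small median. Of 26 members, 7 departed negatively and 1 positively at an unadjusted p under 0.05 (beside 3.54% and 3.57% of all genes), and the median was -0.22 (-0.31 to -0.21 with 1 library left out). Naip6, a sensor of bacterial flagellin in the NLRC4 inflammasome, was at 42.3, 28.7 and 44.6 CPM in the libraries labelled p300KO_TET2KO, 35.8, 42.9 and 42.3 CPM in P300KO, 36.2, 25.1 and 53.4 CPM in TET2KO, and 13.3, 14.7 and 15.7 CPM in WT. The 3 groups with a deletion overlapped and all 9 of their libraries lay above WT. Each single loss was called higher than WT, by 1.47 for p300 and 1.39 for Tet2 on the log2 scale (edgeR adjusted p = 0.00495 and 0.0182), while the libraries labelled p300KO_TET2KO were at 1.40 relative to WT where the sum predicts 2.86. The departure was -1.46 ± 0.33 (unadjusted p = 6.83e-04, edgeR adjusted p = 0.491, DESeq2 adjusted p = 0.00703). Naip6 has near-identical paralogs that can share its reads.

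Nlrc4, the partner of the Naip sensors, had the same order at a smaller size. It was at 11, 11.9 and 14.6 CPM in the libraries labelled p300KO_TET2KO, 10.6, 14.5 and 11.9 CPM in P300KO, 14.7, 11.5 and 17.2 CPM in TET2KO, and 8.04, 8.49 and 8.25 CPM in WT. WT was below the other 9 libraries and the departure was -0.79 ± 0.25 (unadjusted p = 0.00723, edgeR adjusted p = 0.586). The inflammatory caspase genes Casp4 and Casp1 departed by -0.71 ± 0.16 and -0.73 ± 0.21. Tlr1, a receptor of bacterial lipopeptides, was at 1.46, 0.384 and 0.736 CPM in the libraries labelled p300KO_TET2KO, 0.464, 0.516 and 1.01 CPM in P300KO, 5.99, 3.87 and 2.92 CPM in TET2KO, and 0.427, 0.304 and 1.06 CPM in WT. Its TET2KO libraries lay above the other 9, and the departure was -2.62 ± 0.78 (unadjusted p = 0.00543, edgeR adjusted p = 0.574).

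Ribosome biogenesis and Myc target genes had a positive median, 0.27, with 39 of 40 members positive (beside 50.1% of all genes) and 6 of them at an unadjusted p under 0.05 (beside 3.57%). Cad, the enzyme that starts pyrimidine synthesis, was at 335, 295 and 257 CPM in the libraries labelled p300KO_TET2KO, 247, 223 and 264 CPM in P300KO, 175, 246 and 268 CPM in TET2KO, and 327, 282 and 288 CPM in WT. WT lay above P300KO and TET2KO and overlapped the libraries labelled p300KO_TET2KO, and the departure was 0.65 ± 0.21 (unadjusted p = 0.00836, edgeR adjusted p = 0.586). Rrp12, Mybbp1a and Tcof1, which serve ribosome assembly and rRNA transcription, departed by 0.63 ± 0.20, 0.39 ± 0.17 and 0.38 ± 0.16.

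TET2KO replicate 1 was the lowest library for this list, at -0.54 relative to the WT mean, where the other 11 lay between -0.21 and 0.10. Without it the median departure was 0.16. Over the fits that left out 1 library, 2 to 17 members had a positive departure at an unadjusted p under 0.05.

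Mature B and plasma cell genes had the highest median, 0.79 (0.43 to 1.04 with 1 library left out), from 20 members with a median level of 3.15 CPM, of which 4 departed positively at an unadjusted p under 0.05 (beside 3.57% of all genes). Mzb1, a chaperone of antibody-secreting cells, was at 2.40, 9.88 and 9.11 CPM in the libraries labelled p300KO_TET2KO, 0.0774, 2.37 and 1.66 CPM in P300KO, 3.98, 2.30 and 3.06 CPM in TET2KO, and 5.68, 2.82 and 3.96 CPM in WT. The groups overlapped and the departure was 2.76 ± 0.97 (unadjusted p = 0.0140, edgeR adjusted p = 0.632). The summed level of the list was 1328, 3325 and 3502 CPM in the libraries labelled p300KO_TET2KO, 402, 1200 and 1422 CPM in P300KO, 1354, 635 and 1473 CPM in TET2KO, and 863, 794 and 1333 CPM in WT. Replicate 1 was the lowest of P300KO and of the libraries labelled p300KO_TET2KO, and the groups overlapped. The part that mature B-lineage cells in the sort had in this departure was not tested.

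Mitochondrially encoded genes had a median of -0.49 and 0 of 15 members at an unadjusted p under 0.05 in edgeR, where DESeq2 and limma-voom called 0 too. The list stood at -0.06, -1.29 and 0.19 relative to the WT mean in the libraries labelled p300KO_TET2KO, and between -0.05 and 0.20 in the other 9 libraries. Without p300KO_TET2KO replicate 2 the median departure was -0.11. The erythroid list moved more widely, from -0.25 with all libraries to 0.80 without TET2KO replicate 3, and it was at 0.19 on log2 CPM group means.

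**Figure D4:**
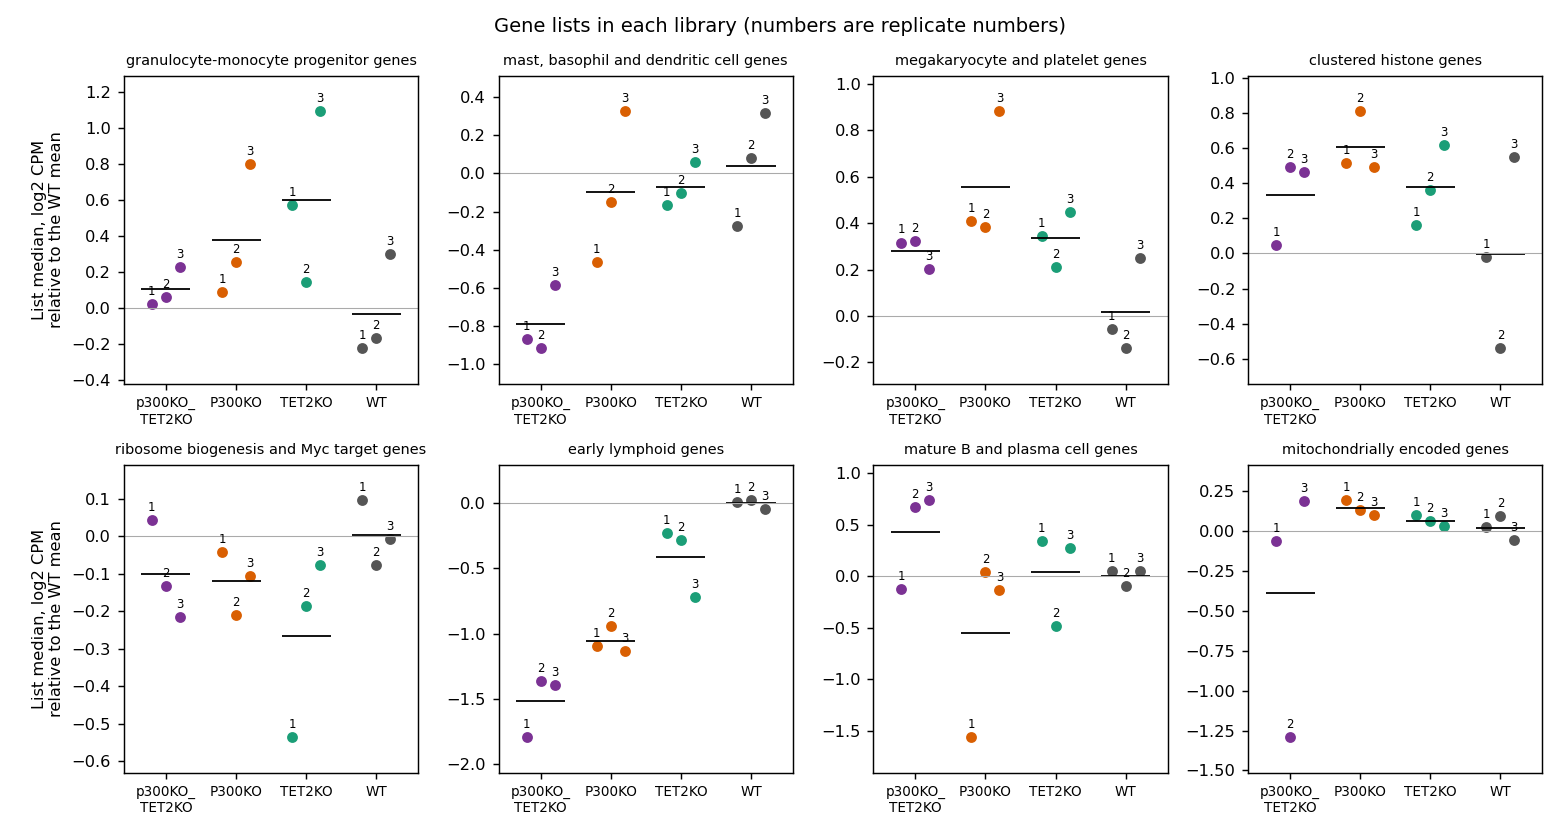
Median of log2 CPM over the members of 8 gene lists in each library, relative to the WT mean (y axes, log2; numbers are replicate numbers, lines are group means). The granulocyte-monocyte list is highest in TET2KO replicate 3 (1.09), the early lymphoid list is lowest in p300KO_TET2KO (-1.79, -1.37 and -1.39), and single libraries stand off in the histone list (WT replicate 2, -0.54), the ribosome biogenesis list (TET2KO replicate 1, -0.54) and the mitochondrial list (p300KO_TET2KO replicate 2, -1.29).

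In several programs nearly all intervals lay within 1, beside 59% of all genes tested. The share was 93.8% for all genes at 20 to 100 CPM and 93.5% for those at 100 CPM and over. The median members of these lists lay between 30.0 CPM (cholesterol genes) and 753 CPM (cytoplasmic ribosomal protein genes). Their shares were thus near those of any genes at such levels. For 29 of 29 acetyltransferase and deacetylase genes, Ep300 among them, the 95% interval of the departure lay within 1, and Crebbp departed by -0.07 ± 0.15 with 385, 319 and 385 CPM in the libraries labelled p300KO_TET2KO, 367, 335 and 406 CPM in P300KO, 403, 401 and 348 CPM in TET2KO, and 372, 381 and 360 CPM in WT. The groups of Crebbp overlapped. The intervals lay within 1 for 43 of 43 nuclear oxidative phosphorylation genes, 75 of 78 cytoplasmic ribosomal protein genes, 43 of 46 DNA repair genes and 25 of 26 cholesterol genes. An interval within 1 allows a departure of up to 2-fold in either direction, so it bounds a departure and does not set it to 0. Of the DNA repair genes, 6 of 46 departed positively at an unadjusted p under 0.05 (beside 3.57% of all genes), with a list median of 0.11. Of the acetyltransferase and deacetylase genes, 2 of 29 departed negatively (beside 3.54%), and the list median was 0.00.

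The same contrast can be read from the side of Tet2. Tet2 loss called 62 genes higher (0.347%) and 38 lower (0.213%) in P300KO, and 86 higher (0.482%) and 27 lower (0.151%) in WT. In both, 40 genes were called higher (0.224%) and 6 lower (0.0336%). These comparisons share no library either. The 100 calls in P300KO became 39 to 58 without P300KO replicate 2 or 3 or p300KO_TET2KO replicate 2 or 3, and the 113 calls in WT became 36 to 42 without WT replicate 1 or 2 or TET2KO replicate 1 and 205 without TET2KO replicate 2. Sox6, a transcription factor, was at 41.2, 47.3 and 46.3 CPM in the libraries labelled p300KO_TET2KO, 25.1, 24.9 and 18.4 CPM in P300KO, 53.5, 55.2 and 41.2 CPM in TET2KO, and 24.0, 21.2 and 19.8 CPM in WT. The Tet2-deleted libraries, by label, lay above all others, and the departure was -0.23 ± 0.20. Pcdh7, a protocadherin, Fzd8, a Wnt receptor, and Gatm, an enzyme of creatine synthesis, were called higher in both and departed by 0.24 ± 0.19, -0.04 ± 0.33 and -0.18 ± 0.27. Cisd2, an iron-sulfur protein gene, was at 40.2, 40.1 and 44.9 CPM in the libraries labelled p300KO_TET2KO and 40.8, 45.3 and 45.9 CPM in TET2KO, against 70.3, 74.2 and 68.3 CPM in P300KO and 74.3, 68.2 and 71.3 CPM in WT. Its groups with and without Tet2 did not overlap, and it departed by -0.07 ± 0.12 (95% interval -0.32 to 0.18). By the RNA of Cisd2, Sox6 and Pcdh7 the libraries labelled p300KO_TET2KO thus stood with TET2KO, whereas by Tet2 RNA itself they stood with WT. Cisd2, Sox6 and Pcdh7 were named because both Tet2 comparisons called them in the same direction. Their place beside TET2KO follows from that choice and cannot be set against the Tet2 RNA. Cisd2 lies on chromosome 3 at 135406412 to 135423925 (mm10), near Tet2 at 133463679 to 133545139, and such neighbors can differ by the strain of the targeted allele, which cannot be told apart from Tet2 loss.

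Cnn3, a calponin that binds actin, was called lower in all 4 comparisons. It was at 2.14, 2.91 and 2.49 CPM in the libraries labelled p300KO_TET2KO, 11.7, 16.7 and 18.6 CPM in P300KO, 26.9, 26.5 and 26.7 CPM in TET2KO, and 66.9, 68.0 and 102 CPM in WT. No groups overlapped. The libraries labelled p300KO_TET2KO were at -4.93 relative to WT on the log2 scale where the sum of the single effects predicts -3.89, and the departure was -1.05 ± 0.27 (unadjusted p = 0.00217, edgeR adjusted p = 0.553).

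The shape of the departures was alike over the genes past an unadjusted p of 0.05. Of the 631 negative ones, 500 (79.2%) were above WT in both single losses, beside 34.2% of all genes, and of the 637 positive ones 560 (87.9%) were below WT in both, beside 31.7%. In the lists, both single losses were above WT for 21 of 32 granulocyte-monocyte, 23 of 27 megakaryocyte and 56 of 61 histone genes, and below WT for 33 of 40 ribosome biogenesis genes. The same WT libraries enter the departure and both single effects, with opposite signs. Those of P300KO and of TET2KO likewise enter the departure and their own single effect with opposite signs. Such shares are favored by this overlap even without a true departure, so they are a description and were not tested. Leaving out WT replicate 1 brought the number of genes at an unadjusted p under 0.05 to 744, and leaving out P300KO replicate 1 brought it to 1738.

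Among genes that p300 loss lowered, some departures were positive. Slc16a11, a monocarboxylate transporter, was at 2.72, 4.86 and 2.33 CPM in the libraries labelled p300KO_TET2KO, 3.83, 2.84 and 2.51 CPM in P300KO, 7.53, 8.53 and 4.34 CPM in TET2KO, and 23.1, 21.9 and 24.9 CPM in WT. WT lay above all other libraries, and those labelled p300KO_TET2KO overlapped P300KO. The departure was 1.90 ± 0.41 (unadjusted p = 5.33e-04, edgeR adjusted p = 0.491, DESeq2 adjusted p = 0.00479). Apcdd1, an inhibitor of Wnt signaling, Nrarp, a feedback inhibitor of Notch signaling, and Igf2r, the receptor that clears IGF2, departed by 1.40 ± 0.41, 1.01 ± 0.30 and 0.90 ± 0.27. Prex2, an exchange factor for Rac, Chchd10, a mitochondrial protein gene, and Camk2a, a calcium-dependent kinase, departed by 2.09 ± 0.46, 1.10 ± 0.22 and 0.94 ± 0.21 and were called by DESeq2 (adjusted p = 0.00546, 0.00546 and 0.0207).

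Additivity depends on the scale. On linear CPM group means, where additive losses sum their differences in place of multiplying their folds, 768 of all genes tested (4.30%) had a departure of the opposite sign. Of the 141 named genes at an unadjusted p under 0.05, the 3 with the opposite sign were Il7r, Cnn3 and Epha2. These are genes that either loss lowered, where a fold of the remainder is a small difference in CPM. In the early lymphoid list 9 of 45 members changed sign, in the granulocyte-monocyte list 1 of 32 and in the ribosome biogenesis list 0 of 40, which were computed from means and carry no test.

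A departure had to be large to be called. A gene that alone departed would need an unadjusted p of 2.80e-06, and at the standard errors of this fit the median gene would need a log2 departure of 1.99 (3.98-fold) to reach it. A true departure of 2.21 would be called with a power of 80%. The 95% interval of the departure extended 0.54 to either side in the median gene, and the observed departure was 0.20 in size. A departure of 2-fold could be called in 1410 genes (7.90%) and one of 4-fold in 8954 (50.2%). The threshold would be lower if many genes departed, since the adjustment would then allow larger p-values. edgeR called 0 departures, so the threshold of a lone gene was used throughout.

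The limit fell with expression. Below 1 CPM (3153 genes) the median departure needed for a call was 5.66 and the interval extended 1.54 to either side. It was 3.51 from 1 to 5 CPM, 2.04 from 5 to 20 CPM, 1.26 from 20 to 100 CPM and 1.17 at 100 CPM and over (2355 genes), the last a 2.26-fold departure. The share of genes whose interval lay within 1 was 0.412% below 1 CPM, 19.2% from 1 to 5 CPM, 69.5% from 5 to 20 CPM, 93.8% from 20 to 100 CPM and 93.5% at 100 CPM and over. An interval within 1.5-fold was reached by 36.5% of all genes.

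**Figure D5:**
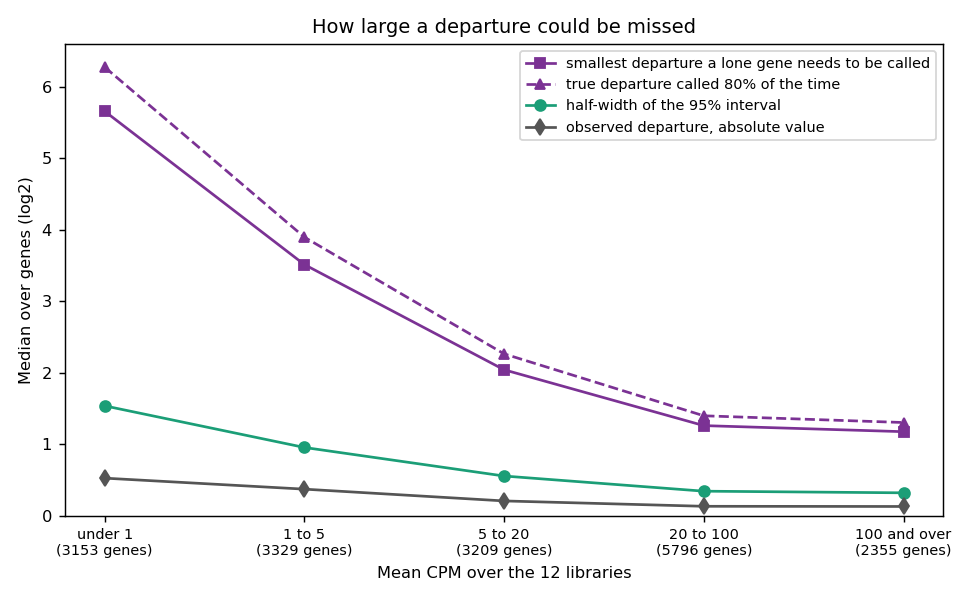
Size of departure (y axis, log2, medians over genes) against mean expression in 5 ranges of CPM (x axis), with the smallest departure that a lone gene needs to be called, the true departure called 80% of the time, the half-width of the 95% interval and the observed departure. The size needed for a call was 5.66 below 1 CPM and 1.17 at 100 CPM and over, and the observed size was below it in each range.

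In the programs described, the median member needed a departure well above the list's median to be called in edgeR. It needed 3.66 (12.7-fold) in the granulocyte-monocyte list, where the median departure was -1.0, and 4.66 in the list of mast cell, basophil and dendritic cell genes. It needed 2.76 in the megakaryocyte list, 2.65 in the histone list, 2.86 in the early lymphoid list and 1.48 in the ribosome biogenesis list. Erythroid and B and plasma cell genes needed 6.74 and 6.55. Single members departed further than their list's median, up to 3.69 in size for Gp6 in the megakaryocyte list and 3.11 for Camp in the granulocyte-monocyte list, and DESeq2 called Csf1r, Gfi1, Rab27b, Hist1h2bq and Naip6 at the departures seen. By these sizes a 2-fold departure, 1 on the log2 scale, would be missed in the median member of each of these lists. In the early lymphoid list 19 of 45 members, and in the granulocyte-monocyte list 7 of 32, had an interval within 1, beside 59% of all genes. An interval also reaches beyond 1 where the departure itself is large, so these counts do not measure what could be missed.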

How the data were processed

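Total RNA of sorted LSK cells was depleted of ribosomal RNA, and libraries were made with the Universal Plus mRNA-Seq kit. The authors used STAR 2.6.0c for alignment (mm10) and deposited expected counts per gene from RSEM 1.3.0, 1 column per library. The Gencode release and the strand setting are not given in the sources used here. The table holds 0 spike-in genes, so the spike-in factor of the study's DESeq2 model was not used. Because the counts were scaled within each library, a change in total RNA per cell is not seen.

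Expected counts were rounded to whole numbers in R 4.3.3, filtered with filterByExpr, scaled by TMM and fitted over all 12 libraries with edgeR 4.0.16 quasi-likelihood models, 1 mean per group (common biological coefficient of variation 0.203). The departure is the interaction contrast. Its SE is the log2 value divided by the square root of F, and intervals are 95% by the t quantile. Tests were two-sided, and p-values were adjusted by Benjamini-Hochberg over 17842 genes and called under 0.05. Plotted effects use the same fit, and log2 CPM group means used a prior count of 2. Levels are TMM-scaled CPM, not per length, and levels of different genes were not compared. Coordinates are those of Gencode M21 (mm10) for the 17743 tested genes whose ID matched.

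The model was tested on simulated counts. Alternatives were DESeq2 1.42.0, limma 3.58.1 (voom and trend), other scalings and filters, a replicate block, a sex covariate and leaving out each library. Leaving out replicate 3 of every group was added after seeing the principal components. Same-numbered libraries were not taken as pairs, though replicate 3 shared some structure between groups. The 47 lists, the genes and the tests were chosen with earlier results of these data known, and the lists share some genes. Genes named are Ep300, Crebbp, Tet2, Myb, Dntt, Notch1 and Il7r, the 15 smallest interaction p-values in each direction at a mean of at least 1 CPM, the largest mean changes called in both p300 or both Tet2 comparisons at 5 CPM, and up to 4 members of each list with the smallest interaction p, without unnamed genes, pseudogenes and antigen receptor segments. Plots were drawn with matplotlib 3.10.9 in Python 3.11.15.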

Additional observations from a re-analysis of the deposited data

How the results depend on the processing

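With DESeq2, the interaction called 51 genes, against 0 with edgeR, p300KO_TET2KO vs TET2KO called 1252 (695), P300KO vs WT 1219 (698), p300KO_TET2KO vs P300KO 351 (100) and TET2KO vs WT 488 (113). DESeq2 called 569 genes in both p300 comparisons in the same direction (322) and 1 in opposite directions (0). limma-voom called 170 genes in TET2KO vs WT. Without a filter on low counts, the interaction called 2 of 28612 genes (Pld4 and Ccl9), p300KO_TET2KO vs P300KO 155, TET2KO vs WT 227, 1 gene was called in opposite directions by the p300 comparisons, and the median SE was 0.566, against 0.249 with the filter. At an unadjusted p, the median departure needed was 0.54. Without replicate 3 of every group, an alternative added after seeing the data, the interaction called 21 genes, most of them unnamed genes or pseudogenes but Pld4 and Apobec3 among them, p300KO_TET2KO vs TET2KO 410, P300KO vs WT 456, p300KO_TET2KO vs P300KO 58, both p300 comparisons in the same direction 203 and in opposite directions 4. The cause of these differences was not tested.

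The fit with the replicate number as a block called 2 interaction genes, Pld4 (-1.63, edgeR adjusted p = 0.0199) and Hist1h2bq (-1.58, adjusted p = 0.0208). Same-numbered libraries correlated from -0.152 to 0.135 in their deviations from the group means, with 5 of 18 pairs over 0.1. These were replicate 2 of P300KO with p300KO_TET2KO (0.135) and replicate 3 of WT with P300KO (0.1002), P300KO with TET2KO (0.123), P300KO with p300KO_TET2KO (0.112) and TET2KO with p300KO_TET2KO (0.126). Replicate 3 of WT correlated by 0.031 with TET2KO and -0.061 with p300KO_TET2KO. The correlations were small, so the numbers were not taken as pairs. The block moved no other count of calls by over 1.5 times.

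With 1 library left out, the interaction called 0 to 14 genes (14 without WT replicate 3 and 1, Ccl9, without TET2KO replicate 2), and 744 (without WT replicate 1) to 1738 (without P300KO replicate 1) had an unadjusted p under 0.05. Calls ranged over 387 (without p300KO_TET2KO replicate 3) to 767 in p300KO_TET2KO vs TET2KO, 244 (without WT replicate 1) to 900 in P300KO vs WT, 39 (without P300KO replicate 2) to 148 in p300KO_TET2KO vs P300KO, and 36 (without WT replicate 1) to 205 (without TET2KO replicate 2) in TET2KO vs WT. Genes called in both p300 comparisons ranged over 166 (without WT replicate 2) to 426 in the same direction and 0 to 0 in opposite directions. Over the named genes and all alternatives, 37 pairs of a gene and an alternative passed the adjusted threshold, each with the sign of the main fit. The main fit called 0 departures, so it held no call that could reverse. Many named genes were also chosen by a small interaction p in these libraries, which makes a change of sign unlikely. The limits are those of 3 libraries per group, sex and Tet2 RNA that are not balanced over the groups, and low counts in the lineage lists.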

Other observations

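Outside the programs described, 5 of the 51 genes called by DESeq2 are given here with their edgeR departures, chosen after their values were seen. Hvcn1, a voltage-gated proton channel of phagocytes and B cells, was at 25.9, 33.7 and 32.5 CPM in the libraries labelled p300KO_TET2KO, 49.1, 39.9 and 49.2 CPM in P300KO, 35.5, 26.0 and 34.9 CPM in TET2KO, and 18.7, 22.8 and 23.1 CPM in WT. The P300KO libraries lay above the other 9 and WT below them, and the departure was -1.16 ± 0.21 (edgeR adjusted p = 0.396). Hpse, heparanase, was at 9.40, 8.95 and 10.3 CPM in the libraries labelled p300KO_TET2KO, 26.0, 26.2 and 24.1 CPM in P300KO, 21.3, 15.3 and 31.9 CPM in TET2KO, and 16.2, 17.8 and 30.1 CPM in WT. The libraries labelled p300KO_TET2KO lay below the other 9, and the departure was -1.52 ± 0.36 (edgeR adjusted p = 0.543). Pde10a, a cyclic nucleotide phosphodiesterase, showed the same order at low counts, with 0.365, 0.251 and 0.327 CPM in the libraries labelled p300KO_TET2KO against 0.952 to 4.08 CPM in the other 9, and a departure of -3.20 ± 0.67. Rassf4, a Ras association domain gene, departed by -0.94 ± 0.22. Ldhb, a lactate dehydrogenase subunit, was at 24.0, 29.3 and 25.4 CPM in the libraries labelled p300KO_TET2KO, 19.97, 19.3 and 22.0 CPM in P300KO, 20.9, 19.3 and 17.0 CPM in TET2KO, and 25.0, 23.9 and 23.9 CPM in WT. Either single loss was below WT and the libraries labelled p300KO_TET2KO overlapped WT, with a departure of 0.71 ± 0.15.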
